A study of Saccharomyces cerevisiae with 12 samples.

Results

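The early MMS window set 2 arrays of budding yeast, taken 30 and 60 min after methyl methanesulfonate (MMS) was added at 0.1%, against the 2 arrays at 0 min of both stress courses of the study, which stand for unstressed cells. The labels do not say whether the 0 min cells were sampled before or just after the agent was added. These 4 arrays were chosen by their labelled stress and time, out of 12 in the series. All cells were Saccharomyces cerevisiae grown in YPD, a rich glucose medium, at 25 °C to mid-log phase. The strain is not given in the labels. One of the 0 min arrays opened the MMS course and the other opened the parallel course in which 0.3 mM H2O2 was added. Comparison groups were the 30 and 60 min H2O2 arrays (n = 2) and the 100, 140 and 180 min MMS arrays (n = 3). Each stress and time point had 1 array, so that the time points of a window stood in for replicates. The p-values therefore compare windows against the spread among such arrays and not among repeat cultures, and 30 and 60 min also differ by what happened between them. Total RNA was hybridised to Affymetrix yeast arrays, and every level below is a log2 probe set signal, on which a step of 1 is a doubling. Of 5716 probe sets that were not controls, 5498 were listed with 1 gene.

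MMS adds methyl groups to DNA bases. In yeast the glycosylase Mag1 removes several of the damaged bases and starts base excision repair, and lesions met by a replication fork activate the checkpoint kinases Mec1, Rad53 and Dun1, which raise the supply of deoxynucleotides through ribonucleotide reductase. MMS also methylates other molecules of the cell, glutathione and proteins among them, and yeast answers many stresses with a common programme in which the transcription factors Msn2 and Msn4 raise protective genes while genes for making ribosomes fall. The transcription factor Yap1 controls many antioxidant genes, and Rpn4 those of the proteasome, the protease that degrades ubiquitin-tagged proteins.

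The 0 min arrays were close to each other, with an SD of the log2 difference of 0.151 over the 5716 probe sets, and the array medians of the series lay between 9.04 and 9.19. Mating type markers were those of alpha cells in all 4 arrays. MF(ALPHA)1, MF(ALPHA)2 and STE3 stood at 11.54 to 12.98, and the 4 markers of a cells, MFA1, MFA2, STE2 and BAR1, at 4.51 to 7.04. Meiotic genes IME1, NDT80, SPO11, SPS4 and DIT1 lay between 3.23 and 6.94. ACT1, actin, read 13.08 and 13.06 at 0 min in the H2O2 and MMS courses, 13.07 at 30 min and 13.16 at 60 min of MMS. The glycolytic genes TDH3 (0.04 ± 0.08, SE) and PGK1 (0.01 ± 0.08) likewise had no difference past the threshold.

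A large part of the transcripts measured stood at another level within the first hour of MMS. The series has no untreated arrays at 30 or 60 min, so that effects of MMS and of time in culture cannot be told apart. The threshold for a call was an adjusted p of 0.05 (Benjamini and Hochberg's method) in a limma fit over all 12 arrays and all 5716 probe sets. Called probe sets numbered 1880, which is 32.9% of those tested, with 1076 higher (18.8%) and 804 lower (14.1%) than at time 0. Of them 401 (7.02%) were also 2-fold or more higher and 266 (4.65%) 2-fold or more lower. All 1880 had both MMS arrays outside both 0 min arrays on the same side. Over all probe sets both MMS arrays lay above both 0 min arrays in 39.2% and below both in 37.9%, so that this separation alone is common. The spread in this fit is taken from all 12 arrays. With only the 4 arrays in the fit 98 probe sets were called, 84 higher and 14 lower. Leaving out 1 array of the 4 gave 372 calls without the 0 min array of the H2O2 course, 484 without that of the MMS course, 438 without the 60 min array and 2784 without the 30 min array. 327 of the 1880 were called whichever of the 4 was left out. The lean towards rises depended on scaling, since rises made up 57.2% of the calls as deposited, 49.2% with each array centred on its median and 49.9% after quantile normalization.

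More probe sets stood far from time 0 at 60 min than at 30 min. At 30 min 240 probe sets (4.2%) were 2-fold or more above the mean of the 0 min arrays and 93 (1.63%) were as far below it. At 60 min there were 663 (11.6%) above and 575 (10.1%) below. These counts rest on 1 array each and have no test. Among the called probe sets 1032 of the 1076 that rose and 759 of the 804 that fell stood farther from time 0 at 60 min than at 30 min, and the median size of their change was 0.54 at 30 min and 1.02 at 60 min. No probe set was 2-fold away in opposite directions at the 2 times. The 278 probe sets that were 2-fold away at 60 min without being called include HSP12, a small membrane-protecting stress protein, which read 8.74 and 8.86 at 0 min, 8.47 at 30 min and 11.41 at 60 min. It had risen at 60 min only, and its window mean differed from time 0 by 1.14 ± 0.85 (adjusted p = 0.318).

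The largest rises were in genes for detoxification and antioxidant defence. In the sentences that follow, 4 values of a gene are its log2 signals at 0 min in the H2O2 course, at 0 min in the MMS course, at 30 min of MMS and at 60 min of MMS, and a change is the mean of the MMS arrays minus the mean of the 0 min arrays ± SE. SRX1 (YKL086W), sulfiredoxin, which repairs peroxiredoxins after over-oxidation, read 5.63, 6.26, 12.27 and 12.86, a rise of 6.62 ± 0.72 or 98.4-fold (adjusted p = 0.000835). DDI3 (YFL061W), a cyanamide hydratase whose name stands for DNA damage inducible, read 5.54, 5.50, 11.43 and 12.70, a rise of 6.54 ± 0.35 or 93.3-fold (adjusted p = 1.55e-05). Both genes had made most of their rise by 30 min. The DDI3 probe set is of a type that similar genes share, and DDI2 is a near-identical copy, so that their signals cannot be told apart.

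FRM2, a nitroreductase-like protein, read 5.32, 5.53, 10.91 and 11.58 (56.6-fold). TSA2 (YDR453C), a stress-induced peroxiredoxin, read 5.33, 5.96, 9.96 and 12.18 (42.9-fold). OYE3, an NADPH oxidoreductase of the old yellow enzyme family, read 6.02, 6.29, 11.17 and 11.94 (42.2-fold). For these genes the MMS arrays lay far above both 0 min arrays, which differed from each other by less than 2-fold. Lying above both was part of the rule by which they were named. The aryl-alcohol dehydrogenase-like genes AAD4 (5.70 ± 0.49) and AAD6 (4.33 ± 0.45) and the glutathione transferase GTT2 (4.11 ± 0.53) also rose. AAD4 has a further, brighter probe set of the shared type, which gave 3.41 ± 0.34. The remaining genes among the 12 largest rises were BOP2 (4.58 ± 0.56), YNR064C, an epoxide hydrolase (4.56 ± 0.51), the multi-stress gene DDR2 (4.0 ± 0.51) and RTC3 (3.96 ± 0.63). All 12 were called whichever of the 4 arrays was left out.

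The 12 largest falls were of a different kind and several belong to ribosome assembly. SFG1 (YOR315W), a regulator of superficial pseudohyphal growth, read 9.30, 9.34, 6.87 and 5.57, a fall of 8.54-fold (-3.09 ± 0.45, adjusted p = 0.00246). CYB5, cytochrome b5, an electron donor in sterol and lipid synthesis, read 11.49, 11.36, 9.38 and 7.37 (-3.05 ± 0.55, adjusted p = 0.00513). RFU1, an inhibitor of the ubiquitin-recycling enzyme Doa4, read 9.30, 9.13, 6.79 and 6.16 (-2.74 ± 0.27, adjusted p = 0.000607). Each of the 3 stood lower at 60 min than at 30 min, and RFU1 had made most of its fall by 30 min.

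Among the same 12, RRS1 (-2.75 ± 0.79), NOG1 (-2.69 ± 0.66) and NOG2 (-2.59 ± 0.48) are factors of large ribosomal subunit assembly, HPT1 (-2.71 ± 0.51) is the purine salvage enzyme hypoxanthine-guanine phosphoribosyltransferase and HMT1 (-2.63 ± 0.36) is the main arginine methyltransferase. IZH1 (-2.62 ± 0.58) is a membrane protein of zinc homeostasis, and YGR035C (-2.94 ± 0.71), BSC1 (-2.71 ± 0.70) and YBR238C (-2.60 ± 0.43) complete the list. BSC1 was dim throughout, at 5.28, 5.83, 2.93 and 2.75. SFG1, CYB5, RFU1, HPT1, HMT1, YBR238C and NOG2 were called whichever array was left out. YGR035C, RRS1, BSC1 and NOG1 lost the call without either 0 min array and without the 60 min array, where RRS1 was at -1.32 (adjusted p = 0.211), and IZH1 lost it without either 0 min array.

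**Figure D1:**
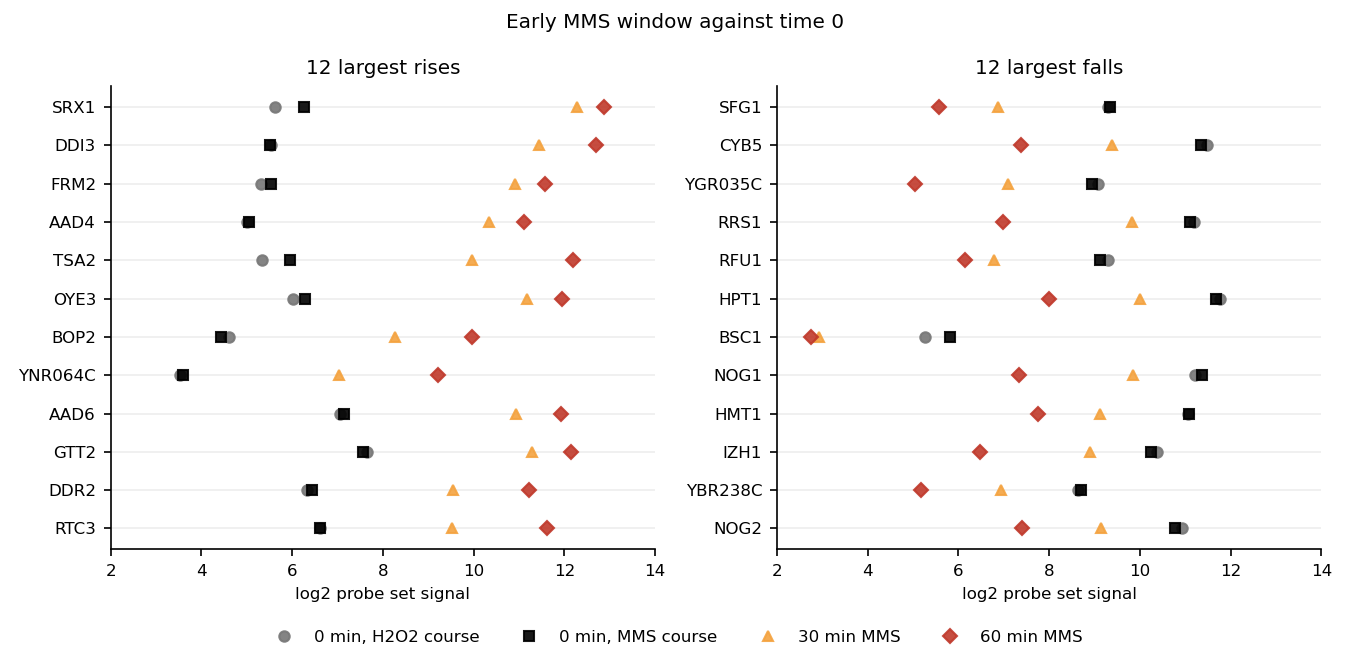
Log2 probe set signal (horizontal axis) of the 12 largest rises and the 12 largest falls in each of the 4 arrays, with 1 point per array. In the left panel the 30 and 60 min MMS points lie far to the right of both 0 min points, which nearly coincide for most genes, and in the right panel they lie to the left, with 60 min farther out than 30 min for all 12 falls.

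In the 6 lists of genes that act on DNA damage or supply nucleotides, the glycosylase gene MAG1 rose most. The list of direct reversal and base excision repair had 5 of 13 genes called higher (38.5%, against 18.8% of all probe sets) and 0 lower, with a median change of 0.11 against 0.02 over all probe sets. MAG1 (YER142C), the 3-methyladenine glycosylase, read 8.20, 8.19, 9.89 and 10.77, a rise of 4.38-fold (2.13 ± 0.42, adjusted p = 0.00733). NTG1, a glycosylase and lyase for oxidised bases, read 7.95, 7.87, 8.64 and 9.36 (1.09 ± 0.22). The MMS arrays of both genes lay above both 0 min arrays, as in every probe set called higher, and the 0 min arrays differed by under 0.1.

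PHR1, the photolyase, rose by 1.02 ± 0.26, and HNT3, which removes AMP from aborted ligations, by 0.56 ± 0.10. TPP1, a DNA 3′ phosphatase, rose as well. MGT1, the methyltransferase that repairs O6-methylguanine, read 8.95, 8.87, 8.90 and 9.14, and its difference of 0.11 ± 0.12 did not pass the test (adjusted p = 0.495). HNT3 was called whichever array was left out. MAG1 lost the call without the 0 min array of the H2O2 course (adjusted p = 0.0525) and without the 60 min array (adjusted p = 0.064), NTG1 lost it without either 0 min array, and PHR1 without these and without the 60 min array. The number called higher in the list was 1 without the 0 min array of the H2O2 course, 2 without that of the MMS course or without the 60 min array and 6 without the 30 min array.

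Nucleotide excision repair, which cuts out bulky damage, had the largest share of rises among the repair lists. Of its 17 genes 8 were called higher (47.1%, against 18.8% of all probe sets) and 0 lower (median 0.23). RAD16, part of a damage sensor of untranscribed DNA, read 6.74, 6.94, 7.71 and 8.85 (1.44 ± 0.39, adjusted p = 0.0229). RAD4, which recognises the lesion, rose by 1.12 ± 0.25, SSL2, a helicase of TFIIH, by 1.08 ± 0.15, and RAD2, an endonuclease that makes one of the incisions, by 0.80 ± 0.28. SSL2 alone of these 4 was called whichever array was left out. The list had 1 call without either 0 min array or without the 60 min array and 9 without the 30 min array, and 5 with arrays centred on their medians. The median of the list was 0.06 at 30 min and 0.46 at 60 min.

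Homologous recombination and fork nucleases had 4 of 26 genes higher and 4 lower (15.4% each). These shares were near the 18.8% and 14.1% of all probe sets. RAD54, the translocase that works with the strand exchange filament, read 7.62, 7.71, 8.49 and 9.42 (1.29 ± 0.31, adjusted p = 0.0146). DNA2, a nuclease and helicase, rose by 0.81 ± 0.21, RAD52, the recombination mediator, by 0.72 ± 0.15 and DIN7, a mitochondrial nuclease whose name stands for DNA damage inducible, by 0.69 ± 0.19. SAE2, which starts the processing of broken ends, fell by 0.92 (5.96, 6.21, 5.17 and 5.16), and RAD55, SRS2 and PSY3 fell too. Without the 60 min array 0 genes of this list were called, without the 0 min array of the H2O2 course 0 were higher and 1 lower, without that of the MMS course 2 and 0, and without the 30 min array 8 and 5. The median of the list, 0.03, turned to -0.03 with arrays centred on their medians and to -0.05 after quantile normalization.

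Post-replication repair had 2 of 11 genes higher (18.2%, against 18.8% of all probe sets) and 1 lower (9.09%, against 14.1%). The 2 were RAD18 (0.73 ± 0.16), the ubiquitin ligase that marks the sliding clamp, and UBC13 (0.52 ± 0.17), which extends the mark. RAD6, the conjugating enzyme that works with Rad18, fell by 0.45 (10.61, 10.71, 10.38 and 10.05). UBC13 and RAD6 lost their calls without either 0 min array and without the 60 min array, and RAD18 without either 0 min array. With arrays centred 1 gene was higher and 2 were lower.

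Among the checkpoint genes, 1 of 15 rose, RAD17, a subunit of the clamp loaded at damage (7.68, 7.81, 8.22 and 8.78), and 2 fell, DPB11 (-0.51 ± 0.10) and CSM3 (-0.37 ± 0.11). RAD53, the effector kinase itself, read 7.72, 7.78, 7.96 and 8.12 (0.29 ± 0.14, adjusted p = 0.132). RAD17 and CSM3 were not called without either 0 min array or without the 60 min array, and DPB11 was not called without either 0 min array (adjusted p = 0.054 in both cases). The share called in this list, 6.67% higher and 13.3% lower, was below and near that of all probe sets.

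The genes of nucleotide supply showed the checkpoint target RNR3 ahead of the other subunits. RNR3 (YIL066C), the damage-inducible large subunit of ribonucleotide reductase, read 6.19, 6.30, 7.53 and 8.77, a rise of 3.75-fold (1.91 ± 0.43, adjusted p = 0.012). The large subunit used in normal growth, RNR1, read 10.39, 10.47, 10.45 and 10.15 (-0.13 ± 0.36, adjusted p = 0.793), and the small subunits RNR2 (0.25 ± 0.12, adjusted p = 0.143) and RNR4 (0.21 ± 0.13, adjusted p = 0.232) did not pass the test. All of these except RNR3 stood high at 0 min and stayed within 0.4 of it.

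Of their regulators, RFX1, the repressor that binds RNR promoters, rose by 1.0 ± 0.13 (7.14, 7.30, 8.03 and 8.41). DUN1, the kinase that acts on the inhibitors of the enzyme, rose by 0.67 ± 0.16. DIF1, which directs the small subunits to the nucleus, fell by 1.06 (9.39, 9.41, 8.56 and 8.12). HUG1, an inhibitor that the checkpoint induces, read 6.70, 6.62, 7.01 and 8.04 and was not called (0.87 ± 0.54, adjusted p = 0.235). SML1, the inhibitor of the large subunit, differed by -0.27 ± 0.13 (adjusted p = 0.119). RFX1 and DIF1 were called whichever array was left out, whereas RNR3 and DUN1 lost the call without either 0 min array and without the 60 min array, where RNR3 was at 1.28 (adjusted p = 0.098).

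**Figure D2:**
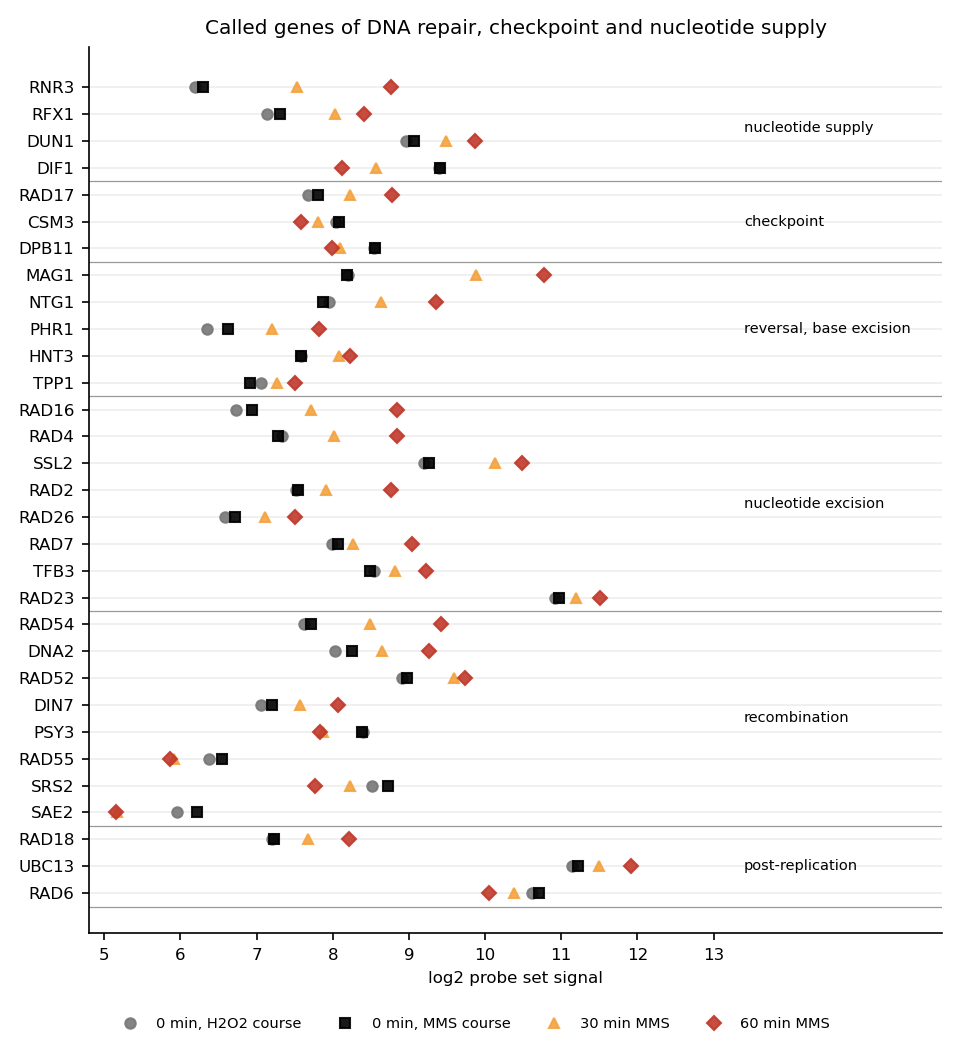
Log2 probe set signal (horizontal axis) in each of the 4 arrays for the called genes of 6 lists of DNA repair, checkpoint and nucleotide supply, grouped by list and ordered by change. MAG1 and RNR3 move farthest to the right, and DIF1, SAE2 and RAD6 are among those that move left.

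Antioxidant genes controlled by Yap1 and Skn7 rose as a group, with 22 of 31 higher (71.0%) and 1 lower, a median of 1.41 and medians of 1.02 at 30 min and 1.63 at 60 min. YAP1, their activator, read 9.92, 10.00, 10.87 and 11.49 (1.22 ± 0.22, adjusted p = 0.00533). SKN7, the other factor of this group, read 9.27, 9.27, 8.57 and 7.90 and was the one that fell. GSH1, the first enzyme of glutathione synthesis, read 9.84, 9.89, 11.37 and 11.73, 3.21-fold higher (adjusted p = 0.00135).

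TRX2, a thioredoxin, rose by 0.50 ± 0.15, and CTT1, the cytosolic catalase, by 1.97 ± 0.64. The abundant peroxiredoxin TSA1 read 12.95, 12.93, 13.09 and 13.27 (adjusted p = 0.193) and was not called, nor was the glutathione peroxidase GPX2, at 10.14, 10.15, 12.27 and 12.80 (adjusted p = 0.0822). TSA1, GPX2 and SKN7 are given with values here although they were picked after their values were seen. YAP1 and GSH1 were called whichever array was left out, and TRX2 and CTT1 lost the call without either 0 min array and without the 60 min array. The list had 10 genes higher without the 0 min array of the H2O2 course, 12 without that of the MMS course, 11 without the 60 min array and 24 without the 30 min array, and 9 with only the 4 arrays in the fit.

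General stress genes of Msn2 and Msn4 rose in 28 of 42 cases (66.7%, against 18.8% of all probe sets) and 0 fell. Their median was 0.98 at 30 min and 2.13 at 60 min, the largest of the 33 lists at 60 min, and all 42 stood higher at 60 min than at 30 min. TSL1, a subunit of trehalose synthase, read 7.59, 7.82, 10.55 and 11.87 (3.50 ± 0.43, adjusted p = 0.00127). XBP1, a stress-induced transcriptional repressor, read 4.02, 3.89, 6.20 and 7.66, and SOL4, a lactonase of the pentose phosphate pathway, 5.02, 5.46, 7.13 and 9.18. Both were dim at 0 min and had not levelled off at 60 min. SOL4 lost the call without either 0 min array and without the 60 min array. The list had 12 genes higher without the 0 min array of the H2O2 course or without the 60 min array, 14 without the 0 min array of the MMS course and 35 without the 30 min array.

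Genes of the proteasome, of ubiquitin factors and of chaperones were called higher in larger shares than the 18.8% of all probe sets. RPN4, the activator of proteasome genes, read 10.69, 10.69, 11.86 and 11.70, a rise of 2.12-fold (1.09 ± 0.18, adjusted p = 0.00352), and was at its higher level at 30 min. Of the 33 proteasome subunits 14 were called higher (42.4%) and 0 lower, with a range of 0.22 to 0.77 and medians of 0.28 at 30 min and 0.62 at 60 min. All 33 had both MMS arrays above both 0 min arrays, against 39.2% of all probe sets. RPT3, an ATPase of the regulatory particle, read 11.15, 11.23, 11.67 and 12.24 (0.77 ± 0.19), and PRE8, a subunit of the core, 11.69, 11.68, 12.09 and 12.67 (0.69 ± 0.21). PRE1 (0.46 ± 0.17, adjusted p = 0.0632) and RPT1 (0.36 ± 0.18, adjusted p = 0.142) did not pass the test. The count depended on single arrays, since 0 subunits were called without either 0 min array or without the 60 min array, 29 without the 30 min array and 28 when the window ran to 100 min. RPN4 was called in each of these leave-outs.

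The genes of proteasome assembly, ubiquitin and the segregase Cdc48 had 17 of 28 higher (60.7%) and 1 lower, the assembly chaperone POC4. DDI1, a ubiquitin-binding protease that shares its upstream region with MAG1, read 8.47, 8.39, 9.86 and 11.06 (2.03 ± 0.38, 4.08-fold). UFD1 (1.44 ± 0.28) and DOA1 (1.34 ± 0.28), partners of Cdc48, ADD66, an assembly chaperone of the proteasome (1.28 ± 0.21), and UBI4, the stress-induced polyubiquitin gene (1.01 ± 0.27), also rose. DDI1 and ADD66 were called whichever array was left out. UFD1 lost the call without the 0 min array of the H2O2 course, and DOA1 and UBI4 without either 0 min array and without the 60 min array. The number called higher was 3 without the 0 min array of the H2O2 course, 4 without that of the MMS course or without the 60 min array and 19 without the 30 min array.

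Of 23 chaperone genes of the heat shock factor Hsf1, 10 rose (43.5%) and 0 fell. HSP82, the inducible Hsp90, read 9.28, 9.62, 11.19 and 11.55 (1.93 ± 0.32), and BTN2, a sorting factor for misfolded proteins, 9.16, 9.08, 11.17 and 10.94 (1.93 ± 0.35). CUR1, its paralogue, rose by 1.27 ± 0.19. BTN2 and CUR1, like RPN4, read higher at 30 min than at 60 min, unlike 1032 of the 1076 probe sets that rose. The chaperone list had 3 calls without the 0 min array of the H2O2 course or without the 60 min array, 4 without that of the MMS course and 10 without the 30 min array, and HSP82, BTN2 and CUR1 were called in all 4 leave-outs. For the unfolded protein response of the endoplasmic reticulum 3 of 15 genes were higher and 3 lower (20.0% each). The shares over all probe sets were 18.8% and 14.1%. ERO1, the oxidase of disulfide formation, read 10.48, 10.47, 11.52 and 12.002, whereas IRE1, the sensor, fell by 0.72 (7.88, 8.02, 7.38 and 7.09) and so did HAC1, the factor it activates. IRE1 lost the call without either 0 min array and without the 60 min array, and 1 gene of this list was higher and 0 lower without the 0 min array of the H2O2 course or without the 60 min array.

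Autophagy and vacuolar proteolysis had 14 of 24 genes higher (58.3%, against 18.8% of all probe sets), with a median of 0.89. The carboxypeptidase gene CPS1 was the 1 called lower. APE1, a vacuolar aminopeptidase delivered by selective autophagy, read 8.04, 7.74, 11.10 and 12.38 (3.85 ± 0.43, adjusted p = 0.000943). ATG1, the kinase that starts autophagy, read 6.32, 6.44, 8.10 and 8.67 (2.01 ± 0.35). ATG14, a subunit of the lipid kinase at the forming membrane, rose by 1.90 ± 0.29, and ATG19, the receptor for Ape1, by 1.58 ± 0.36. ATG19 lost the call without either 0 min array and without the 60 min array, and the other 3 kept it. The list had 5 genes higher without the 0 min array of the H2O2 course, 8 without that of the MMS course, 7 without the 60 min array and 18 without the 30 min array.

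Genes for assembling ribosomes formed the largest group that fell. Of 123 assembly factors 54 were called lower (43.9%, against 14.1% of all probe sets) and 0 higher. All 123 had both MMS arrays below both 0 min arrays, against 37.9% of all probe sets, and all 123 stood lower at 60 min than at 30 min. Their median was -0.52 at 30 min and -1.85 at 60 min, and the number 2-fold or more below time 0 was 12 at 30 min and 114 at 60 min.

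RRS1 read 11.20, 11.11, 9.84 and 6.98, and NOG1, a GTPase of the large subunit precursor, 11.22, 11.38, 9.86 and 7.35. SPB1, an RNA methyltransferase of the same particle, read 9.33, 9.48, 8.04 and 5.66 (-2.55 ± 0.58). In each of them the step from 30 to 60 min was larger than the step from 0 to 30 min. The wide gap between 30 and 60 min enters the spread of the window, and the count of calls followed the array left out. It was 110 without the 30 min array, 4 without the 60 min array, 2 without the 0 min array of the H2O2 course, 3 without that of the MMS course and 0 with only the 4 arrays in the fit. SPB1 lost its call without either 0 min array.

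RNA polymerases I and III, which transcribe ribosomal and transfer RNA genes, behaved like the assembly factors, with 9 of 20 subunits lower and 0 higher. The share lower was 45%, against 14.1% of all probe sets. All 20 subunits lay below both 0 min arrays, against 37.9% of all probe sets. Their median was -0.50 at 30 min and -1.58 at 60 min. RPA12, a polymerase I subunit, read 11.02, 10.97, 9.75 and 8.22 (-2.01 ± 0.41), and RPO31, the largest subunit of polymerase III, 9.81, 9.89, 9.04 and 7.97 (-1.35 ± 0.28). Without either 0 min array 0 were called, without the 60 min array 2, and without the 30 min array 18.

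The ribosomal proteins themselves were seldom called in this hour, and their median differences were small. Of 127 probe sets 4 were lower (3.15%) and 1 higher, RPL15B, and the median was -0.06 at 30 min and -0.27 at 60 min. The number 2-fold or more below time 0 was 1 at 30 min and 15 at 60 min. Over all probe sets 10.1% were as far below time 0 at 60 min. Only 3 of the 127 stood higher at 60 min than at 30 min. The 4 that fell were RPL41A (-1.52 ± 0.26), RPS28B (-1.20 ± 0.30), RPS9A (-1.03 ± 0.34) and RPL22B (-0.86 ± 0.28). RPS28B read 12.29, 12.14, 11.50 and 10.53. RPL41A, like 25 of the 127 probe sets, is of a type that similar genes share. Both MMS arrays were below both 0 min arrays in 80 of 127, a larger share than the 37.9% of all probe sets. Without the 30 min array 26 were called lower, and without any of the other 3 arrays 1 was.

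**Figure D3:**
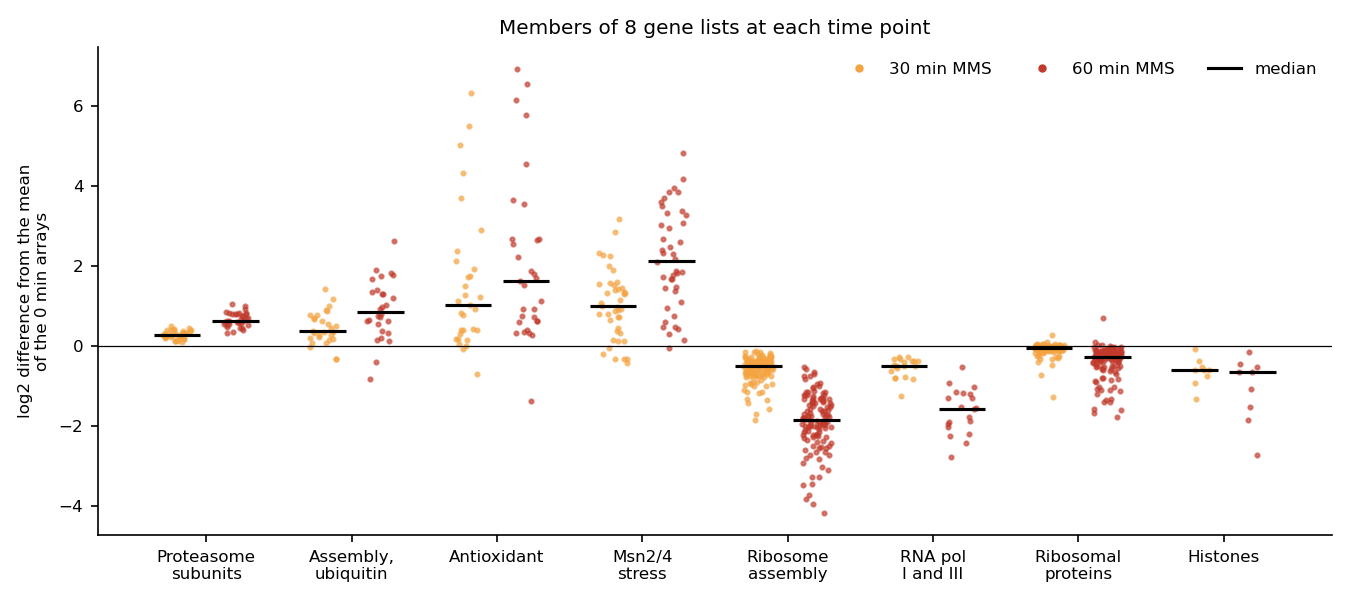
Log2 difference from the mean of the 0 min arrays (vertical axis) for each member of 8 gene lists, at 30 min and at 60 min of MMS, with 1 point per gene and a bar at the median. Ribosome assembly and polymerase genes shift down mainly between 30 and 60 min (median -0.52 and -1.85 for assembly). The medians of the ribosomal proteins stay near 0, with some members far below it at 60 min, and proteasome subunits lie in a narrow band above 0.

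Among cell cycle transcripts the histones, several cyclins and some of their regulators fell, and a few replication genes rose. In RNA from a whole culture, fewer cells at a stage of the cycle and less of the transcript per cell cannot be told apart. The histones fell in 8 of 9 cases (88.9%), and the linker histone HHO1 was the one that was not called. HTB2, a histone H2B gene, read 11.56, 11.50, 10.60 and 8.81 (-1.82 ± 0.47), and HTA1, a histone H2A gene, 12.25, 12.16, 10.86 and 10.34 (-1.60 ± 0.24). HTA1 kept its call in every leave-out, whereas HTB2, HTA2 and HTZ1 lost theirs without either 0 min array and without the 60 min array. The list had 2 calls without the 0 min array of the H2O2 course, 4 without that of the MMS course, 3 without the 60 min array and 8 without the 30 min array. HTA2 is read by a probe set of the shared type.

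The G1 cyclins CLN1 (8.57, 8.52, 7.60 and 7.37), CLN2 (9.32, 9.32, 8.44 and 7.60) and PCL1 (-1.45 ± 0.40) fell, as did CLN3 (-1.18 ± 0.24), the most upstream of them. CLB2, the main mitotic cyclin, read 9.03, 9.08, 7.57 and 6.80 (-1.87 ± 0.35, adjusted p = 0.00616). CLB1 (-1.37 ± 0.40), the forkhead factor FKH1 (-0.98 ± 0.24) and the coactivator NDD1 (-0.78 ± 0.21) fell with it. SIC1, the inhibitor of S phase cyclin kinase, read 9.20, 9.21, 9.13 and 9.22 and was not called. The replication licensing gene CDC6 fell by 1.47. Against these, PLM2, a forkhead-domain factor of the G1/S and damage programmes, rose from 6.25 and 5.95 to 8.03 and 8.49 (2.16 ± 0.25, adjusted p = 0.00105), and the replication genes POL30, RFA1, RFA2, RFC4 and PRI1 rose as well. That left the G1/S and replication list even, at 6 of 35 higher and 6 lower (17.1% each). The CLB2 cluster had 0 of 19 higher and 4 lower (21.1%). Over all probe sets 18.8% were higher and 14.1% lower. PLM2 was called whichever array was left out. CLB2 lost the call without the 60 min array (adjusted p = 0.053), and CLN1, CLN2, PCL1, CLB1, FKH1, NDD1 and CDC6 also without either 0 min array. CLN3 lost it without the 0 min array of the H2O2 course and without the 60 min array. Without the 60 min array 0 genes of either list were called lower, and without the 30 min array 10 and 6 were. The rises of the G1/S and replication list numbered 3 without the 0 min array of the H2O2 course and 1, PLM2, without that of the MMS course or without the 60 min array.

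Metabolic genes gave smaller and mixed changes. Over all probe sets 14.1% were called lower and 18.8% higher. Ergosterol synthesis had 8 of 25 genes lower (32.0%) and 0 higher. ERG1, squalene epoxidase, read 12.08, 12.13, 11.12 and 9.51 (-1.79 ± 0.43), and HMG1, an HMG-CoA reductase, fell by 1.46. Without either 0 min array 0 were called, without the 60 min array 1 and without the 30 min array 14. Respiration and the TCA cycle had 15 of 51 genes lower (29.4%) and 4 higher. RIP1, the iron-sulfur subunit of complex III, read 10.48, 10.53, 9.44 and 8.88 (-1.35 ± 0.19), and NDE1, the external NADH dehydrogenase, fell by 1.36. The genes that rose include COX5B (1.67 ± 0.35) and CYC7 (1.49 ± 0.42), the hypoxic isoforms of a cytochrome oxidase subunit and of cytochrome c. RIP1 and NDE1 were called whichever array was left out, and COX5B, CYC7, ERG1 and HMG1 lost the call without either 0 min array and without the 60 min array. The respiration list had 3 genes lower without the 0 min array of the H2O2 course, 4 without that of the MMS course, 5 without the 60 min array and 20 without the 30 min array.

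Of the sulfur amino acid genes 6 of 32 rose and 1 fell, and the share that rose, 18.8%, was that of all probe sets. MET28, a factor of the Met4 complex, read 5.21, 5.48, 7.86 and 8.08 (2.62 ± 0.45), and STR2, a transsulfuration enzyme that makes cystathionine, rose by 1.57 ± 0.19. SAM1, an S-adenosylmethionine synthetase, was the one that fell, at 11.58, 11.59, 10.52 and 8.22. The sulfate assimilation genes MET3 (8.18, 8.10, 8.16 and 8.30) and MET17 (0.37 ± 0.28, adjusted p = 0.323) were not called. SAM1 lost the call without either 0 min array and without the 60 min array, and the number higher was 3 without the 0 min array of the H2O2 course and 4 without that of the MMS course or without the 60 min array, while 6 genes were lower without the 30 min array.

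Genes of amino acid synthesis under Gcn4 had 13 of 50 higher (26.0%, against 18.8% of all probe sets) and 2 lower (4%, against 14.1%). ARG4, the last enzyme of arginine synthesis, read 11.42, 11.35, 12.47 and 12.73 (1.22 ± 0.22), and ORT1, the mitochondrial ornithine carrier, rose by 1.12 ± 0.20. GLN1, glutamine synthetase, fell by 1.03. GCN4 itself, whose activity is set mainly by translation, read 12.72, 12.67, 12.71 and 12.68. ARG4 and ORT1 were called whichever array was left out, GLN1 was not called without either 0 min array or without the 60 min array, and the list had 3 genes higher without the 0 min array of the H2O2 course or without the 60 min array, 4 without that of the MMS course and 15 without the 30 min array, where 5 were lower.

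**Figure D4:**
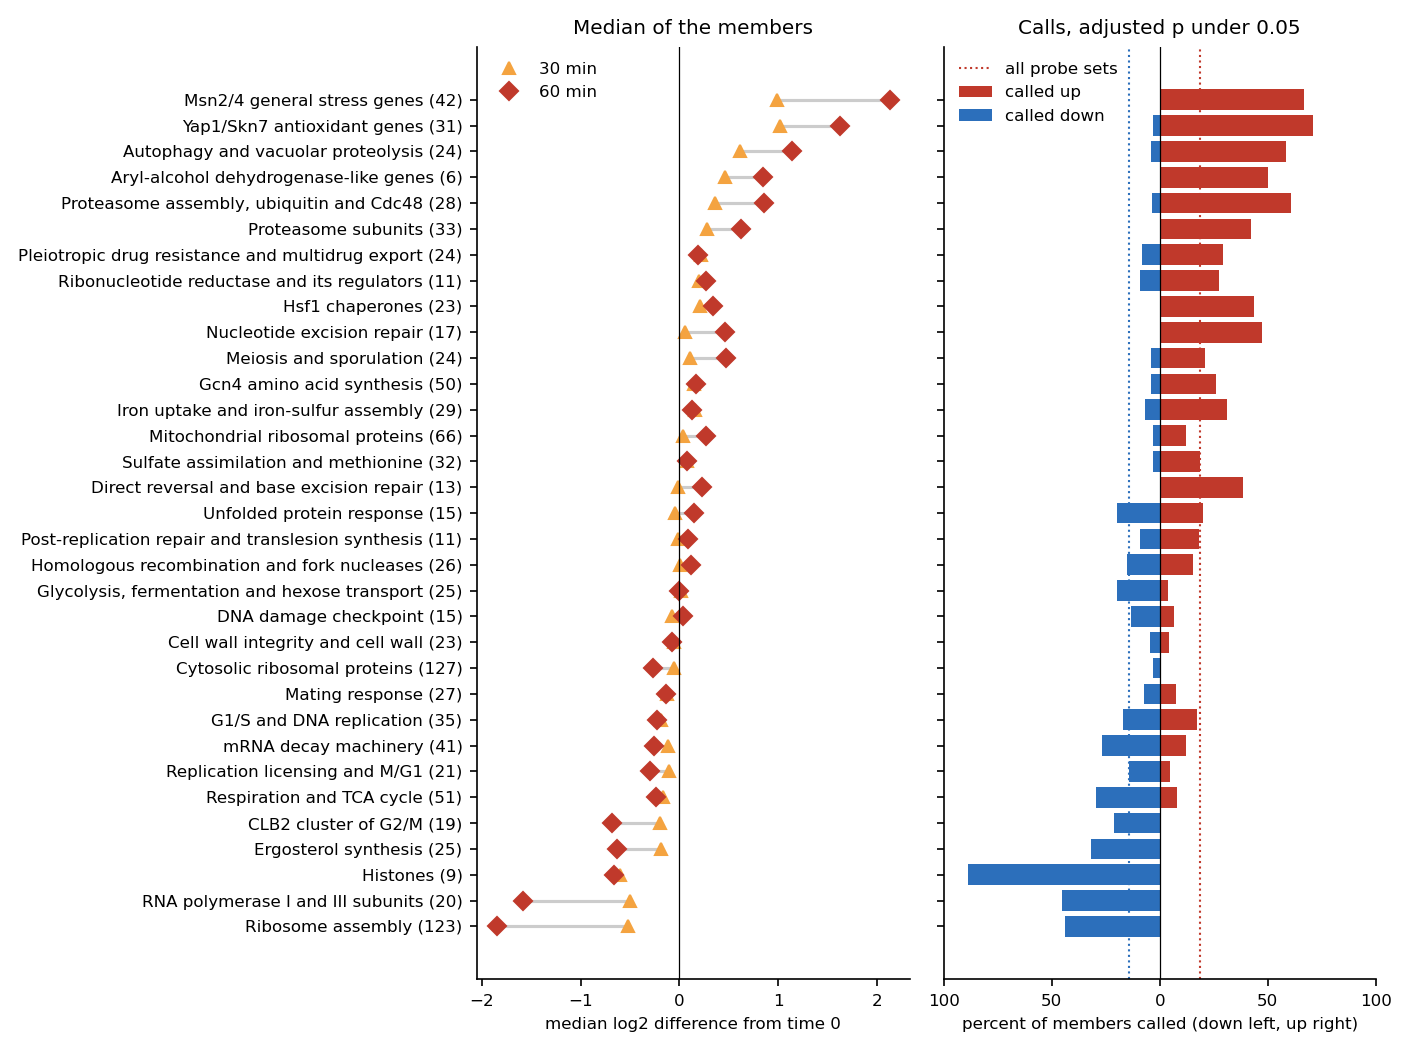
Left, median log2 difference from time 0 of the members of each of 33 gene lists at 30 min and at 60 min, with the number of members in brackets. Right, percent of members called lower (left of 0) and higher (right of 0), with dotted lines at the shares over all probe sets, 14.1% and 18.8%. The stress and antioxidant lists lie highest and ribosome assembly lowest, and for these the 60 min medians lie farther from 0 than the 30 min medians.

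The comparison with the early H2O2 window asked which of these levels differed between the 2 treatments. Each agent had 1 dose, so that effects of the agent and of its dose cannot be told apart. The comparison rests on 2 arrays a stress at the same 2 times. Its differences are the mean of the early MMS arrays minus the mean of the early H2O2 arrays. The 0 min levels do not enter these differences, and the 0 min arrays add only to the spread, which is taken from all arrays of the series. MMS was higher in 325 probe sets (5.69%) and lower in 138 (2.41%). This balance depended on scaling, with 186 higher and 202 lower when each array was centred on its median, and 221 and 166 after quantile normalization. The largest difference in the higher direction was in DDI3, which read 5.87 and 6.60 at 30 and 60 min of H2O2 against 11.43 and 12.70 of MMS (5.83 ± 0.35, adjusted p = 4.64e-05). SSU1, the plasma membrane sulfite pump, read 9.54 and 9.54 in H2O2 against 12.54 and 12.64 in MMS (3.04, adjusted p = 4.9e-07), with 9.72 and 9.69 at 0 min. YNR064C read 3.63 and 4.01 in H2O2 against 7.04 and 9.22 in MMS (4.30 ± 0.51). In the H2O2 arrays SSU1 lay near its 0 min levels. DDI3, at 5.54 and 5.50 at 0 min, and YNR064C, at 3.54 and 3.59, stood above those levels at 60 min of H2O2. In the MMS arrays DDI3, SSU1 and YNR064C lay far above their 0 min levels.

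YSW1 (2.96), YNR068C (1.65) and BSC5 (1.57) complete the 6 largest differences in that direction among genes called against time 0, and of the 6 BSC5 lost the call in one leave-out, without the 60 min MMS array (adjusted p = 0.0651). In the other direction, the catalases CTA1 and CTT1 reached lower levels in MMS. CTA1 read 6.52 and 8.24 in MMS against 10.38 and 10.25 in H2O2 (-2.93, adjusted p = 0.015). CTT1 read 8.05 and 9.46 against 10.96 and 11.73 (-2.59 ± 0.64, adjusted p = 0.041). AGX1, alanine-glyoxylate aminotransferase (-2.58), ARR2, an arsenate reductase (-2.19), DDR2 (-2.10) and YER053C-A (-1.94) followed. All 6 were above time 0 in MMS and higher still in H2O2. Against time 0, CTA1 lost its call without the 0 min array of the H2O2 course, and YER053C-A without either 0 min array and without the 30 min array. For the difference between MMS and H2O2, CTT1 and DDR2 lost the call in 3 of 4 leave-outs each, and CTA1 without the 60 min H2O2 array.

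MAG1 read 10.06 and 10.59 in H2O2 against 9.89 and 10.77 in MMS, and 0 of the 13 reversal and base excision genes and 0 of the 11 genes of nucleotide supply were called in either direction. Higher in MMS were 2 of 17 nucleotide excision genes, 2 of 15 checkpoint genes, 1 of 26 recombination genes and 1 of 11 post-replication genes, and 0 genes of these lists were lower, against 5.69% and 2.41% of all probe sets. DIN7 was higher in MMS (0.77 ± 0.19, adjusted p = 0.0412). The G1/S and replication list had 8 of 35 higher in MMS and 0 lower, and mRNA decay 7 of 41 and 0. Respiration had 14 of 51 lower and 0 higher, with RIP1 at -1.45 (adjusted p = 0.0047). The antioxidant list had 0 of 31 higher and 2 lower, which are the catalases. The whole comparison had 157 calls without the 60 min H2O2 array, 925 without the 30 min MMS array and 196 without the 60 min MMS array, and with only its own 4 arrays in the fit limma called 0 probe sets, with 608 at an unadjusted p under 0.05.

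**Figure D5:**
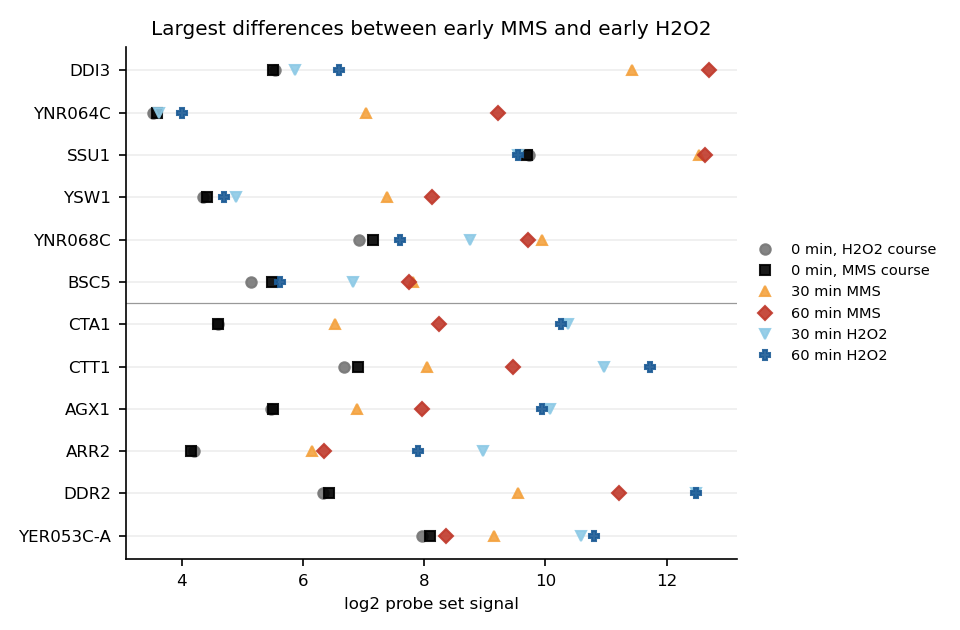
Log2 probe set signal (horizontal axis) for the 6 genes with the largest differences in each direction between early MMS and early H2O2, with 1 point per array. Above the line the MMS points lie to the right of the H2O2 points, and below it, as for CTA1 and CTT1, the H2O2 points lie farthest right.

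Many probe sets stood at another level in the late MMS arrays than in the early window. How many of the early calls moved farther from time 0 in the same direction was not counted. Late MMS was higher in 1558 probe sets (27.3%) and lower in 1218 (21.3%). The Msn2/4 stress genes were higher late in 36 of 42 cases and lower in 0. SOL4 went on to 11.13, 11.60 and 11.24 at 100, 140 and 180 min (3.17 ± 0.63 above the early window). HSP12, not called early, read 13.16, 13.31 and 13.43, and HUG1 read 9.09, 9.58 and 10.03. YNL194C (3.09), DCS2 (3.09), TFS1 (2.95), UGX2 (2.89) and GPM2 (2.79) had the next largest rises after SOL4 among genes called early.

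The ribosomal proteins were lower late in 123 of 127 cases, with a median of -1.03, after the small median differences of the first hour. Ribosome assembly was lower still in 85 of 123 and the CLB2 cluster in 15 of 19. RNR1 read 9.23, 8.65 and 8.52 late, -1.50 from the early window (adjusted p = 0.0067), while RNR3 read 9.47, 9.28 and 9.15. PHO3 (-3.03), HO (-2.58), PCL1 (-2.44), HTB2 (-2.37), INA1 (-2.30) and PXR1 (-2.15) had the largest further falls among genes called early. Of the Gcn4 genes 16 of 50 were lower late than early and 2 higher. SRX1 read 12.28, 11.68 and 11.80 late and FRM2 10.59, 9.29 and 8.44, neither called against the early window (-0.65 and -1.81, adjusted p = 0.435 and 0.129). Without the 30 min array the comparison had 689 calls in place of 2776, and SOL4, YNL194C, TFS1, UGX2 and PXR1 were not among them.

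Genes that moved most between 30 and 60 min, among those called, are described without a test, since each time had 1 array. YNL194C read 5.61 at 30 min and 8.40 at 60 min, from 3.07 and 3.50 at 0 min. PGM2, phosphoglucomutase, read 8.36 and 10.76, HXK1, a hexokinase, 9.94 and 12.25, and TFS1, an inhibitor of carboxypeptidase Y, 8.86 and 11.22. LSO1 read 5.96 and 8.29. TSA2, described above, belongs with them. In the other direction the assembly factors RRS1, NSR1 (10.73 and 7.92), DBP3 (10.40 and 7.88), NOG1 and ALB1 (10.48 and 8.01) and the zinc homeostasis gene IZH1 (8.90 and 6.49) had the largest drops. Of the 6 with the largest drops, all but IZH1 are ribosome assembly genes. Against time 0, YNL194C lost its call without the 0 min array of the H2O2 course and in no other leave-out of the 4. PGM2, HXK1, TFS1, LSO1, NSR1, DBP3, ALB1, DCS2, GPM2, UGX2, PHO3, HO, INA1 and PXR1 lost theirs without either 0 min array and without the 60 min array.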

How the data were processed

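The deposited values are log2 signals per probe set. RMA is the tool that the submitters' processing notes name for them. The RMA version and whether all arrays were normalized together are not given in the sources used here. Of 5900 probe sets 184 controls were left out, and 5716 were analysed without further scaling or filtering, each probe set on its own. They stand for 5449 genes, and 12 symbols were updated from RefSeq names. Groups were time 0 (n = 2), early MMS (n = 2), early H2O2 (n = 2) and the late windows (n = 3 each). The linear model held 5 groups and took in every array (limma 3.58.1, R 4.3.3), which left 7 residual and 2.74 prior degrees of freedom. Calls had a Benjamini-Hochberg adjusted p under 0.05 over all 5716 probe sets. The small number of arrays limits precision. The arrays compared, the 33 gene lists and the named genes were chosen with earlier results of these data known. Named were the 12 largest changes each way, up to 4 called members of each list, the 6 largest differences each way in the other comparisons and between 30 and 60 min, and a fixed set of damage, stress, cell cycle and reference genes. Genes named outside this rule were picked after their values were seen. Where an array is left out of a group of 2, the remaining array is assumed to vary like the other groups. No array was dropped or imputed in the reported fit, and promoter motifs were not analysed here.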

Additional observations from a re-analysis of the deposited data

Results flagged for a closer look

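The direct limma contrast of early MMS with early H2O2, described above, called 463 probe sets, and 5 genes among them are set out here. They are not the 5 strongest, since SSU1 had a lower adjusted p than each of them. DDI3 rose by 6.54 after MMS and stood 0.71 above time 0 after H2O2, a difference of 5.83 (adjusted p = 4.64e-05). YNR064C rose by 4.56 after MMS against 0.26 after H2O2, a difference of 4.30 (adjusted p = 0.00347). DIN7 rose by 0.69 against -0.08, a difference of 0.77 (adjusted p = 0.0412). DDR2 rose by 4.0 after MMS against 6.10 after H2O2, a difference of -2.10 (adjusted p = 0.0373), and CTT1 by 1.97 against 4.56, a difference of -2.59 (adjusted p = 0.041). For DDI3, YNR064C and DIN7 both MMS arrays lay above both H2O2 arrays, and for DDR2 and CTT1 both lay below. Leaving out each of the 4 arrays in turn, DDI3 and YNR064C kept the call on this difference in all 4. DIN7 lost it without the 30 min H2O2 array and without the 60 min MMS array (adjusted p = 0.14 and 0.145), and its rise against time 0 lost its call without either 0 min array and without the 60 min array (adjusted p = 0.132, 0.0801 and 0.207). DDR2 and CTT1 lost the call on the difference in 3 of the 4. A limma fit with these 4 arrays alone called 0 probe sets, with 608 at an unadjusted p under 0.05. The groups of 2 or 3 arrays are too small for a test of single outlying arrays.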

How the results depend on the processing

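The comparison with time 0 had 1880 calls, and the alternatives moved this number more than any scaling did: 98 with only the 4 arrays in the fit and 54 with 30 min alone as the window. Leaving out 1 array in turn gave 372 to 2784. MMS against H2O2 had 463 calls, 0 with only its own arrays (608 at an unadjusted p under 0.05 in limma), 6 with 30 min alone, 1041 with windows of 30 to 100 min and 1035 with time point as a block. Leaving out 1 array gave 157 to 925. Late against early MMS had 2776 calls, 1456 with only its own arrays, 1711 with 30 min alone as the early window and 614 with 30 to 100 min, and leaving out 1 array gave 689 to 3204. Median centring, quantile normalization, leaving out the dimmest 25% of probe sets, a variance trend with robust moderation, and 1 value per gene (the brightest or the mean) kept the total of each comparison within 1.5 times. The split of MMS against H2O2 moved more, from 325 higher and 138 lower to 186 and 202 with median centring and 221 and 166 after quantile normalization. Among the named probe sets no called value changed sign, and the sign of the other called probe sets was not compared. Of the 172 named probe sets that were called, 165 were called with median centring, 161 after quantile normalization, 29 with only the 4 arrays and 60 whichever of the 4 arrays was left out. The cause of these shifts was not tested, beyond the fewer arrays that some fits hold. No paired analysis was possible because groups share no time point, for MMS against time 0 and for late against early MMS. The MMS and H2O2 windows do share 30 and 60 min, and the fit with time point as a block is the paired one.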

Other observations

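Some further gene groups moved within the hour. Over all probe sets 18.8% were called higher and 14.1% lower. Iron and iron-sulfur genes had 9 of 29 members higher (31.0%) and 2 lower, the permease gene FTR1 and the mitochondrial carrier gene MRS3. MRS4, the paralogous mitochondrial iron carrier, read 8.58 and 8.62 at 0 min in the H2O2 and MMS courses, 10.999 at 30 min and 10.99 at 60 min of MMS, a rise of 5.25-fold (2.39 ± 0.18, adjusted p = 0.000175). ISU2, a scaffold for iron-sulfur cluster assembly, rose by 2.39 ± 0.19 and TIS11, which destabilises mRNAs of iron-using proteins, by 1.75 ± 0.31. These 3 were called whichever of the 4 arrays was left out, and the list had 6 to 11 rises in those fits. MRS4 and ISU2 had made nearly all of their rise by 30 min.

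Among multidrug export genes 7 of 24 rose (29.2%, against 18.8% of all probe sets) and 2 fell (8.33%, against 14.1%). ATR1, a transporter of the major facilitator family, rose from 8.86 and 8.80 to 11.83 and 11.96 (3.07 ± 0.22, 8.39-fold, adjusted p = 0.000163), and FLR1, a transporter of the same family, rose by 2.41 ± 0.55. AQR1 fell by 1.48. ATR1 kept its call in every leave-out, FLR1 and AQR1 lost theirs without either 0 min array and without the 60 min array, and AQR1 also without the 30 min array, and the list had 1 rise without either 0 min array or without the 60 min array. Genes of mRNA decay had 11 of 41 lower (26.8%, against 14.1% of all probe sets) and 5 higher (12.2%, against 18.8%). EDC2, an activator of decapping, rose by 1.56 ± 0.28 and DHH1, a decapping helicase, fell by 0.78. Without either 0 min array or without the 60 min array 0 genes of that list were lower.

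Mating response genes (2 of 27 higher and 2 lower), cell wall integrity genes (1 of 23 each way), mitochondrial ribosomal proteins (8 of 66 higher and 2 lower) and meiosis and sporulation genes (5 of 24 higher and 1 lower) had shares of calls near or below those of all probe sets. STE12, the transcription factor of the mating response, fell by 0.88, and SLT2, the kinase of the cell wall pathway, rose by 0.73, but neither was called without the 0 min array of the H2O2 course or without the 60 min array. Glycolysis, fermentation and hexose transport had 1 of 25 genes higher (4%), TDH1 (1.52 ± 0.19), and 5 lower (20%). Over all probe sets 18.8% were higher and 14.1% lower. The aryl-alcohol dehydrogenase-like genes had 3 of 6 higher (50%) and 0 lower. Of these, AAD4 and AAD3 were read by probe sets of a type that similar genes share. AAD3 was dim, at 3.32, 3.10, 3.78 and 4.42, with a change of 0.89 ± 0.29 that was 0.57 without the 60 min array. Replication licensing genes had 1 of 21 higher (4.76%) and 3 lower (14.3%), the latter near the share of all probe sets. Without either 0 min array or without the 60 min array 0 glycolysis genes were lower. Of the 218 probe sets listed with no gene 73 were called, a share near the 32.9% of all probe sets.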
